A study of Rattus norvegicus and Mus musculus with 10 samples.

Results

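Cd79a, Cd79b, Ms4a1, Cd22, Blnk, Bank1, Pax5, Ebf1 and Spib are 9 genes that mark B lymphocytes and carry or tune the signal of the B cell receptor. They were taken by symbol from the gene tables of both species: 9 of 9 were found among 32883 rat genes and 9 of 9 among 31053 mouse genes. Their levels were followed across leukocytes of the brain, its coverings and blood, both inside the clusters that the authors named for B cells and outside them. The study sequenced the RNA of single cells in 8 libraries, with 1 library per group. The 6 rat libraries came from naive Lewis rats, 25 animals in all, and held cells of the central nervous system (CNS), the choroid plexus (a blood-filtering tissue of the ventricles), the dura and the pia (the outer and inner coverings of the brain), cerebrospinal fluid (CSF) and blood. The labels do not say how many rats went into each. The 2 mouse libraries held cells of the skull dura of C57BL/6 mice, 1 from 4 pooled unimmunized animals (called naive here) and 1 from 3 pooled animals at the peak of active experimental autoimmune encephalomyelitis (EAE), an immunization model of central nervous inflammation. A further 2 mouse samples held B cell receptor sequences, 1 per condition.

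The protocol states that cells of CNS, dura, choroid plexus and a preparation abbreviated SDM were sorted as positive for CD45, the common leukocyte protein, and negative for a CD45 antibody given into the bloodstream. CSF cells were not sorted, and blood cells were enriched as mononuclear cells on a density gradient without a sort. Comparisons of dura with blood therefore also compare a sorted with an unsorted preparation, and the sort, the animals and the tissue cannot be told apart. With 1 library per group there was no replicate check and no test. Intervals given here are 95% counting intervals (exact Poisson for a level, exact binomial for a share, exact conditional binomial for a ratio), and they cover counting error only. Levels are counts of unique molecular identifiers (UMIs, 1 per captured RNA molecule) summed over the cells of a cluster and scaled by all UMIs of those cells to CPM. A gene's level was compared across cells and in general not with that of another gene. The exceptions are UMIs of Cd79a set beside those of Cd79b, and counts of members in the class-switched B cells. Whether different genes are captured equally well was not tested.

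A B cell senses antigen through a membrane immunoglobulin that cannot signal by itself. Cd79a and Cd79b form the paired signalling chains of the receptor, whose tails are phosphorylated and recruit the kinase Syk. Blnk is the adaptor that then assembles Btk and phospholipase C, and Bank1 is a B cell scaffold that binds Lyn and modulates calcium release. Cd22 is a sialic-acid-binding inhibitory co-receptor, and Ms4a1 encodes CD20, the surface protein of mature B cells that therapeutic antibodies bind. Ebf1 and Pax5 are the factors that specify and hold B cell identity from the earliest precursors on, and Spib is an Ets family factor used by B cells and by plasmacytoid dendritic cells (pDC).

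In the mouse annotation (GENCODE vM21, mm10), Cd79a lies on the forward strand at chr7:24897381-24902197 and Cd79b on the reverse strand at chr11:106311341-106314762. Ms4a1 (chr19:11249675-11266241) and Cd22 (chr7:30865402-30880342) are both on the reverse strand. The adaptors Blnk (chr19:40928927-40994535) and Bank1 (chr3:136053363-136326066) are on the reverse strand as well. Of the factors, Ebf1 (chr11:44617317-45008091) is on the forward strand, and Pax5 (chr4:44524757-44710487) and Spib (chr7:44525993-44532071) are on the reverse strand. The values count the 3′ ends of transcripts and do not separate promoters or isoforms.

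Rat promoter sequences of 6 of the 9 genes were found in the RefSeq table of build GRCr8. Cd79b, Ms4a1 and Pax5 had no entry. Of the 6 sequences found, 3 are printed, among them every one with a match in the searches below. Each is given as the 250 bases before the annotated start, 5′ to 3′ on the gene's own strand. The searches read both strands and covered a palindromic core of the Ebf1 site (TCCC, any 2 bases, GGGA), the octamer bound by Oct factors and their B cell partner (ATGCAAAT), and an Ets core of the kind bound by the family of Spib (AGGAAGT). Capitals mark a match. None of these letters overlap between the motifs in the 3 sequences.
Cd79a, chr1:89621210-89621459, forward strand: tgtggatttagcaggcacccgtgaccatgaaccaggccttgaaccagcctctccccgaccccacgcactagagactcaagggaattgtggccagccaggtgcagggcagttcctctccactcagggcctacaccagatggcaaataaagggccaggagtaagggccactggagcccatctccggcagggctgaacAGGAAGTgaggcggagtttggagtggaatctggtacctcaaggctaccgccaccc
Blnk, chr1:249770534-249770783, reverse strand: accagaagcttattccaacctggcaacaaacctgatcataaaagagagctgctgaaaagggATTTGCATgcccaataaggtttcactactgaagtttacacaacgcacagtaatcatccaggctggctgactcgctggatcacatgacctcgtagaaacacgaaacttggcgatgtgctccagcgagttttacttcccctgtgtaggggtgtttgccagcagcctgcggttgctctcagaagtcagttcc
Spib, chr1:104161296-104161545, reverse strand: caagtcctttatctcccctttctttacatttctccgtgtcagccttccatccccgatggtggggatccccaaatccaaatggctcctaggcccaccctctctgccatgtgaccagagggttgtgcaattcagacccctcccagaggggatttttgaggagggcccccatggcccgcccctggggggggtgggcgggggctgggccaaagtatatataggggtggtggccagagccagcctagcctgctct
The Cd79a sequence held the Ets core and the Blnk sequence held the octamer on its other strand, printed as ATTTGCAT. The Spib sequence held none of the 3, so it has no capitals. Among 27457 rat promoters of the same length, 6.99% held the Ets core, 1.50% the octamer and 0.736% the Ebf1 core. Of the 6 member sequences, 1 held the Ets core, 1 the octamer and 0 the Ebf1 core. A match in the letters is a description and no evidence of binding.

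The annotated cells numbered 2272 to 4953 per library. Median UMIs per cell ran from 981 (pia) to 2704 (CNS) in the rat, and were 4163.5 in the naive and 11743 in the EAE mouse library. The authors' B clusters held 38.8% of the cells of blood, 24.4% of dura, 9.20% of CSF, 0.748% to 1.22% of choroid plexus, pia and CNS, 6.45% of naive and 2.40% of EAE mouse dura. Pairs of libraries shared 7 to 36 barcode sequences. A doublet caller marked 0.111% to 2.27% of cells per library, and these cells were kept. Several clusters went against their B cell names. Cluster Bc2 of CNS (36 cells) and of pia (26 cells) had 0 UMIs of 8 members, with Blnk as the exception, with summed levels of 35175 and 23914 CPM for a list of macrophage and monocyte genes. In Bc2 of CSF 5 of 6 cells and in Bc2 of choroid plexus 8 of 10 cells had no UMI of any member. The EAE cluster BcProg, named for B progenitors, had members in few of its 74 cells and is described by itself. Bc1 of CNS, choroid plexus and pia held 8, 7 and 15 cells, with 45, 21 and 23 UMIs of Cd79a, and no level was computed there.

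The levels of the receptor chains Cd79a and Cd79b did not move together between the rat compartments. Cd79a stood at 3438 CPM in Bc1 of blood (interval 3357 to 3520; 1226 cells), at 4077 CPM in Bc1 of dura (3941 to 4215; 836 cells) and at 500 CPM in Bc1 of CSF (430 to 578; 284 cells). CSF was thus the low compartment for Cd79a, 6.88-fold below blood (5.94 to 8.01), while dura was 1.19-fold above blood (1.14 to 1.24), a difference that was gone among cells of at least 1000 UMIs (log2 ratio 0.00061). Cd79b stood at 5208 CPM in blood (5108 to 5309), 3007 CPM in CSF (2831 to 3190) and 2401 CPM in dura (2297 to 2508). Dura was the lowest compartment for Cd79b, 2.17-fold below blood (2.07 to 2.28), and CSF was 1.73-fold below blood (1.63 to 1.84).

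The same was seen cell by cell. UMIs of both chains were found in 1201 of 1226 Bc1 cells of blood (98.0%) and in 675 of 836 of dura (80.7%). In Bc1 of CSF it was 123 of 284 (43.3%), with 146 cells that had Cd79b alone against 5 that had Cd79a alone. In dura the imbalance ran the other way, with 121 cells with Cd79a alone and 25 with Cd79b alone. After every cell was thinned to 500 UMIs, which left out no cell of these clusters, Cd79a was found in 79.9% of blood, 84.9% of dura and 23.0% of CSF Bc1 cells, and Cd79b in 90.5%, 67.6% and 75.5%. Before thinning the shares for Cd79a were 98.2%, 95.2% and 45.1%, and for Cd79b 99.8%, 83.7% and 94.7%. In cells of the CD4 Tc cluster with a UMI of a Cd3 gene, T cells that should lack Cd79a, the unthinned share was 4.75% in blood, 1.98% in dura and 0.273% in CSF, at medians of 2646, 1351 and 2046.5 UMIs against 1482.5, 850.5 and 1123.5 in Bc1.

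**Figure D1:**
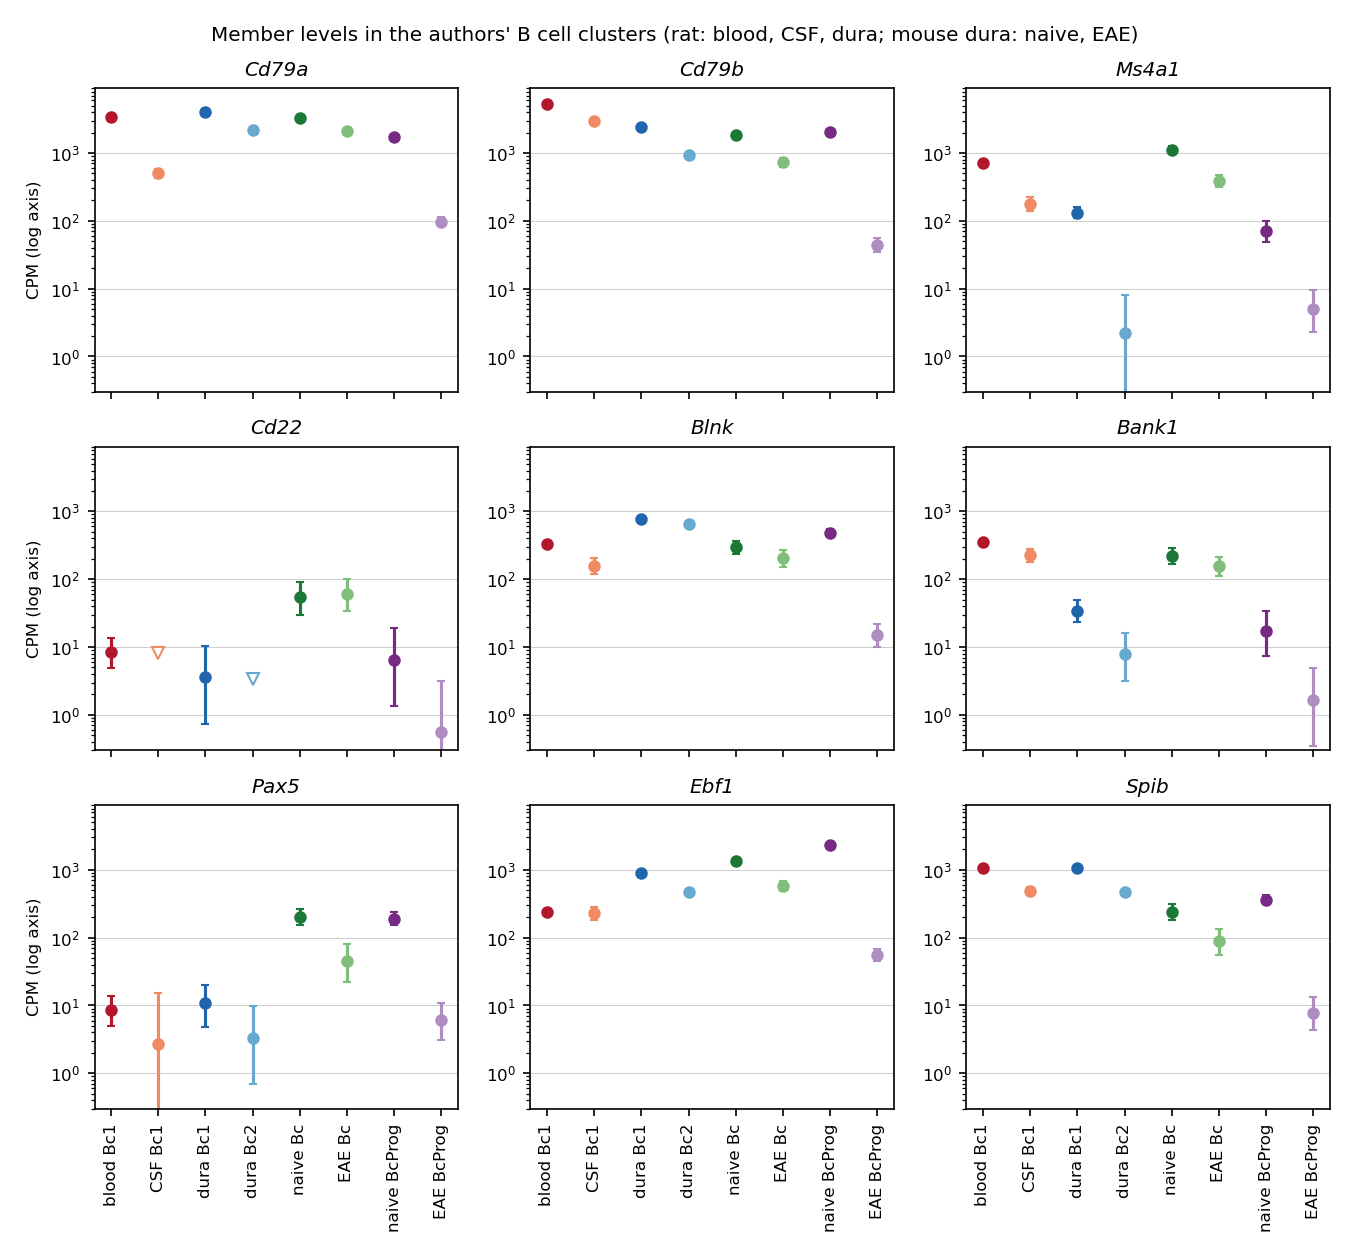
Level of each gene in the B clusters of the rat (blood, CSF and dura Bc1, dura Bc2) and of mouse dura (naive and EAE Bc and BcProg), in CPM on a log axis, with 95% Poisson counting bars. Open triangles give the limit that a count of 0 allows (3 counts), bars that leave the panel reach below its lower edge, and Ms4a1 and Bank1 can be seen to be lower in dura Bc1 than in blood Bc1 where Ebf1 is higher.

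Ms4a1 was lower in dura and CSF than in blood, and Cd22 was too scarce to compare. Ms4a1 measured 720 CPM in Bc1 of blood (684 to 758), 178 CPM in CSF (138 to 228) and 132 CPM in dura (109 to 159). Dura was 5.45-fold below blood (4.49 to 6.67) and CSF 4.03-fold below blood (3.15 to 5.26), and the intervals of dura and CSF overlapped. Thinned to equal depth, 30.6% of blood, 8.57% of CSF and 5.98% of dura Bc1 cells had an Ms4a1 UMI (63.7%, 18.7% and 9.09% unthinned). Cd22 was close to the detection limit in every rat cluster. It gave 8.47 CPM in Bc1 of blood from 17 UMIs and 3.57 CPM in Bc1 of dura from 3 UMIs, and 0 UMIs in CSF, which allows up to 8.24 CPM. The Cd22 ratio of blood over dura, 2.37, had an interval of 0.686 to 12.6, so a difference was not detectable at this depth.

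The adaptors parted in opposite directions. Blnk was 328 CPM in Bc1 of blood (303 to 354), 761 CPM in dura (703 to 822) and 157 CPM in CSF (119 to 203). It was 2.32-fold higher in dura than in blood (2.08 to 2.59) and 2.10-fold lower in CSF than in blood. Bank1 was 359 CPM in blood (333 to 386), 225 CPM in CSF (179 to 280) and 34.5 CPM in dura (23.1 to 49.6). Its 10.4-fold lower level in dura than in blood (7.18 to 15.6) was the widest gap between those clusters of any member, and among cells of at least 1000 UMIs the log2 ratio was −4.12 in place of −3.38. The CSF level was 1.59-fold below blood. The share of thinned Bc1 cells with a Bank1 UMI was 17.1% in blood, 11.2% in CSF and 1.86% in dura (43.5%, 24.6% and 3.11% unthinned).

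Of the transcription factors, Ebf1 was higher in dura and Spib was not. Ebf1 stood at 895 CPM in Bc1 of dura (832 to 961), 236 CPM in blood (215 to 258) and 231 CPM in CSF (184 to 286). Dura was 3.79-fold above blood (3.37 to 4.26), and CSF and blood could not be separated at this depth, with a ratio of 0.976 (0.765 to 1.23). Spib gave 1063 CPM in dura (994 to 1135), 1052 CPM in blood (1008 to 1098) and 489 CPM in CSF (420 to 566). The ratio of dura over blood for Spib was 1.01 (0.933 to 1.09), and CSF was 2.15-fold below blood. Pax5 was scarcely captured in the rat, at 8.47 CPM in Bc1 of blood, 10.7 CPM in dura and 2.75 CPM in CSF, the last from 1 UMI, and its dura over blood ratio of 1.26 had an interval of 0.497 to 3.00.

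Set against all genes, the ratio was at least 2-fold lower in dura than in blood Bc1 for 4 of the 9 members (Cd79b, Ms4a1, Bank1 and, with an interval that included 1, Cd22), where 14.6% of the 7320 genes with at least 20 UMIs over both sides were that much lower. At least 2-fold higher were 2 of 9 (Blnk and Ebf1), against 13.3% of all genes. When all B clusters of each library were summed, 371 Bc2 cells joined Bc1 in dura and 5 in blood. Cluster content thus differed as well, and the Bc1 cells were the same ones. Counts for these sums were 4 lower and 2 higher, against 14.1% and 17.7% of 8044 genes. Bank1 was 17.2-fold lower in dura (12.3 to 24.8) and Ebf1 2.86-fold higher. TMM scaling of these sums, which assumes that most genes do not differ, left 1 member at least 2-fold higher. In CSF against blood, 4 of the 7 members that could be compared were at least 2-fold lower (Cd79a, Ms4a1, Blnk and Spib), where 20.2% of 6796 genes were, and 0 of 7 were higher, where 6.49% of genes were. The count of lower members was 2 under TMM scaling and also when ribosomal, mitochondrial and immunoglobulin genes were left out of the total. Cd22 and Pax5 had too few UMIs for this comparison. The comparisons of dura and of CSF share the blood library. The median log2 ratio of all genes was 0.03 for dura and −0.40 for CSF. Most compared genes thus had a lower CPM in CSF than in blood. CPM is a share of all UMIs, so this does not measure a fall in total RNA. The summed macrophage and monocyte list measured 943 CPM in Bc1 of blood, 1541 CPM in CSF and 4316 CPM in dura, and its part in these ratios was not tested.

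**Figure D2:**
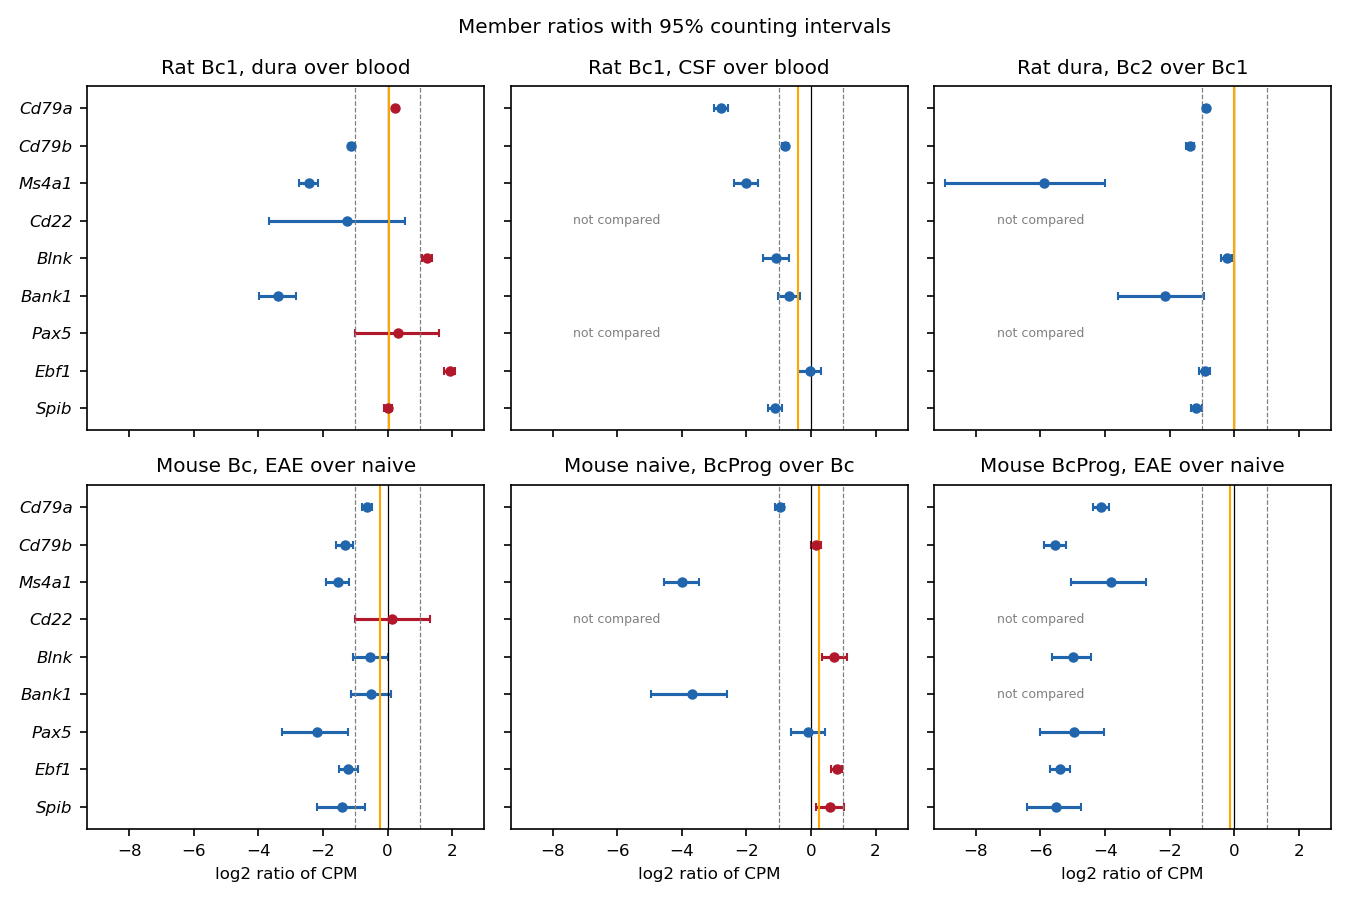
Log2 ratio of each gene's CPM for 6 comparisons, with 95% counting intervals as bars and red for ratios above 0, blue for those below. Dashed lines mark 2-fold, the orange line marks the median of all genes compared, and genes with under 20 UMIs over both sides are given as not compared. All 7 compared genes lie left of the 2-fold line for EAE over naive BcProg.

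Within rat dura the second cluster, Bc2 (371 cells, median 2199 UMIs), had both receptor chains, Blnk, Ebf1 and Spib, with few UMIs of Ms4a1, Bank1 and Pax5 and none of Cd22. Ms4a1 was 2.22 CPM from 2 UMIs in Bc2 against 132 CPM from 111 UMIs in Bc1, and Bank1 was 7.77 CPM against 34.5 CPM. Cd79a was 2208 CPM in Bc2 (2112 to 2308), Cd79b 926 CPM (864 to 991), Ebf1 474 CPM, Blnk 647 CPM and Spib 471 CPM. Each of the 7 compared members was lower in Bc2 than in Bc1, from 1.17-fold for Blnk through 1.85-fold for Cd79a, 1.89-fold for Ebf1, 2.26-fold for Spib, 2.59-fold for Cd79b and 4.44-fold for Bank1 to 59.5-fold for Ms4a1 (16.1 to 497). At least 2-fold lower were 4 of 7, against 10.3% of 6316 genes, and 0 of 7 were higher, against 13.3%. Among cells of at least 1000 UMIs 2 members were lower by that much. The clusters were made from these cells' expression, so the values are a description. A list of B precursor genes summed to 3389 CPM in Bc2, 434 CPM in dura Bc1 and 56.8 CPM in blood Bc1, and a list of division genes to 2737, 442 and 43.9 CPM.

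Cells of dura Bc1 were also split by whether they had a UMI of any of 5 precursor genes (Rag1, Rag2 and Dntt, which recombine the immunoglobulin genes, and Vpreb1 and Igll1, which form the surrogate light chain), a division made after the data were seen. The 198 cells with such a UMI had Ms4a1 at 12.5 CPM and Bank1 at 8.35 CPM, and the 638 without had 180 and 45.0 CPM. Cd79a was 3791 against 4191 CPM, Ebf1 931 against 881 CPM and Spib 1056 against 1066 CPM. Only Ms4a1 of the members had intervals that did not overlap between the 2 sets (2.58 to 36.6, from 3 UMIs, against 148 to 217). Those of Bank1, from 2 UMIs in the first set, overlapped at their edges (1.01 to 30.2 against 29.6 to 65.4). Median UMIs of the sets were 928 and 836.5. The cells without a precursor UMI had Ms4a1 and Bank1 below the 720 and 359 CPM of blood Bc1. At this depth a cell without such a UMI may still be a precursor. In dura Bc2, 106 cells had none either, at a median of 1892.5 UMIs. In dura Bc2, 277 of 371 cells had a UMI of a division gene, again a division made after the data were seen. Spib was 534 CPM in these against 149 CPM, from 22 UMIs, in the others. Cd79a went the other way, at 2113 against 2693 CPM. The median UMIs were 2503 and 1282, and a division UMI is more readily seen in deeper cells.

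In mouse dura, the mature cluster Bc held all 9 members in both conditions. In the naive library (74 cells) Cd79a was 3322 CPM (3102 to 3554), Cd79b 1838 CPM (1675 to 2013) and Ms4a1 1118 CPM (992 to 1256). In the EAE library (25 cells) the same genes were 2126 CPM (1947 to 2317), 730 CPM (627 to 846) and 384 CPM (310 to 469). None of these intervals overlapped between conditions, with EAE lower 1.56-fold for Cd79a (1.40 to 1.75), 2.52-fold for Cd79b (2.11 to 3.01) and 2.91-fold for Ms4a1 (2.30 to 3.72). The factors were lower as well: Pax5 was 205 CPM in naive and 44.9 CPM in EAE (4.56-fold, 2.35 to 9.69), Spib 240 and 89.8 CPM (2.67-fold, 1.62 to 4.57), and Ebf1 1326 and 571 CPM (2.32-fold, 1.90 to 2.85). The inhibitory and adaptor genes gave no difference beyond counting error. Cd22 was 55.1 CPM in naive and 61.2 CPM in EAE, Blnk 295 and 204 CPM, and Bank1 220 and 155 CPM, each with a ratio interval that included 1.

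At least 2-fold lower in EAE were 5 of the 9 members, against 18.3% of 3074 genes in this cluster, and 0 of 9 were higher, against 8.07%. The neutrophil list summed to 16207.5 CPM in the EAE Bc cluster (7 of 7 genes detected) and to 201 CPM in the naive one (6 of 7), and the macrophage and monocyte list to 3007 CPM (10 of 10) and 405 CPM (8 of 10). The median depth was 8395 against 2980.5 UMIs. Their part in the ratios was not tested. Thinned to 1000 UMIs, which left out 1 naive Bc cell, 84.4% of EAE cells (64.4 to 95.7) and 94.0% of naive cells (85.8 to 98.2) had a Cd79a UMI, and 29.3% (13.0 to 50.7) and 57.5% (45.4 to 69.0) an Ms4a1 UMI, with overlapping intervals for both. Before thinning, 100% of cells had Cd79a in both conditions and 80.0% and 81.1% had Ms4a1.

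The naive mouse cluster BcProg (92 cells) had lower Ms4a1 and Bank1 than naive Bc and higher Ebf1, Blnk and Spib. Ms4a1 was 71.0 CPM in BcProg against 1118 CPM in Bc, 15.8-fold lower, and Bank1 17.2 against 220 CPM, 12.8-fold lower. Ebf1 was 2301 against 1326 CPM, 1.73-fold higher, Blnk 486 against 295 CPM, 1.65-fold higher, and Spib 361 against 240 CPM, 1.50-fold higher. Cd79a was 1703 against 3322 CPM, 1.95-fold lower. Pax5 was close to equal, at 191 and 205 CPM, with a ratio of Bc over BcProg of 1.07 (0.745 to 1.52). Cd79b was 2060 against 1838 CPM, a ratio of 1.12 whose sign turns under another scaling. At least 2-fold lower were 2 of 8 compared members, against 6.35% of 4501 genes, and 0 of 8 were higher, against 18.3%. The precursor list summed to 2940 CPM in BcProg and 807 CPM in Bc.

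In naive BcProg the 39 cells with a UMI of a precursor gene had Ms4a1 at 9.45 CPM and Ebf1 at 2892 CPM, and the 53 without had 122 and 1807 CPM. The 24 cells with a division gene UMI had lower levels of most members than the other 68: Cd79a was 771 against 3183 CPM, Cd79b 901 against 3901 CPM, Ebf1 1395 against 3740 CPM and Spib 189 against 634 CPM. Dividing cells were deeper, with a median of 11602.5 against 2412.5 UMIs. Both divisions were made after the data were seen.

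The EAE cluster of the same name, BcProg, did not carry these genes in most of its cells. Of 74 cells, 39 had no UMI of any member, 24 had 1 member, 6 had 2 and 5 had 3 or more, although the median depth was 23693 UMIs. In naive BcProg 88 of 92 cells had 3 or more, at a median of 2936.5 UMIs. Summed over the cluster, Cd79a was 97.5 CPM in EAE (83.6 to 113), Cd79b 44.3 CPM (35.1 to 55.2) and Ebf1 54.9 CPM (44.6 to 66.9). All 7 compared members were at least 2-fold lower than in naive BcProg, against 20.4% of 7309 genes, and 0 were higher, against 16.2%. The folds were 46.5 for Cd79b, 46.0 for Spib, 41.9 for Ebf1, 32.1 for Blnk, 31.0 for Pax5, 17.5 for Cd79a and 14.1 for Ms4a1. Among cells of at least 5000 UMIs they were smaller, with log2 ratios of −3.06 in place of −4.13 for Cd79a, −4.48 in place of −5.54 for Cd79b, −4.68 in place of −5.39 for Ebf1 and −4.64 in place of −5.52 for Spib.

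Of the EAE BcProg cells 5 had at least 4 members. Without them, a choice made after the data were seen, the other 69 cells had the precursor list at 58.8 CPM, the macrophage list at 16725 CPM and a neutrophil list at 5837 CPM. For the whole cluster the macrophage list was 15989 CPM, against 1985 CPM in naive BcProg. The ratios between conditions for this cluster therefore compare clusters of different content under 1 name.

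Few cells carried the name of class-switched B cells (cswBc), and only counts are given. The 13 naive cells held 187 UMIs of Cd79a, 105 of Cd79b and 40 of Blnk, but 5 of Ms4a1, 3 of Bank1, 1 of Spib and 0 of Pax5, Ebf1 and Cd22. The 11 EAE cells held 131 UMIs of Cd79a, 86 of Cd79b, 33 of Blnk, 3 of Bank1, 2 of Ms4a1, 2 of Ebf1 and 0 of Pax5, Spib and Cd22. In both conditions UMIs came mostly from the receptor chains and Blnk, and hardly from the identity factors.

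Most Bc1 and Bc cells held several members, with fewer per cell in CSF. At least 3 members were found in 1171 of 1226 blood, 701 of 836 dura and 160 of 284 CSF Bc1 cells, and in 73 of 74 naive and 25 of 25 EAE Bc cells. After thinning, the mean number of members per cell was 2.87 in blood, 2.69 in dura and 1.60 in CSF Bc1, and 1.75 in dura Bc2. Without thinning the means of dura Bc2 and Bc1 were 3.67 and 3.54, so their order rests on the thinning. In the mouse it was 3.79 in naive Bc, 2.57 in EAE Bc, 3.67 in naive BcProg and 0.202 in EAE BcProg. Without thinning the EAE Bc mean was 6.40 and the naive Bc mean 5.59, so its direction rests on the thinning. Outside the B clusters the thinned means ran from 0.026 (CSF) to 0.226 (CNS) members per cell.

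**Figure D3:**
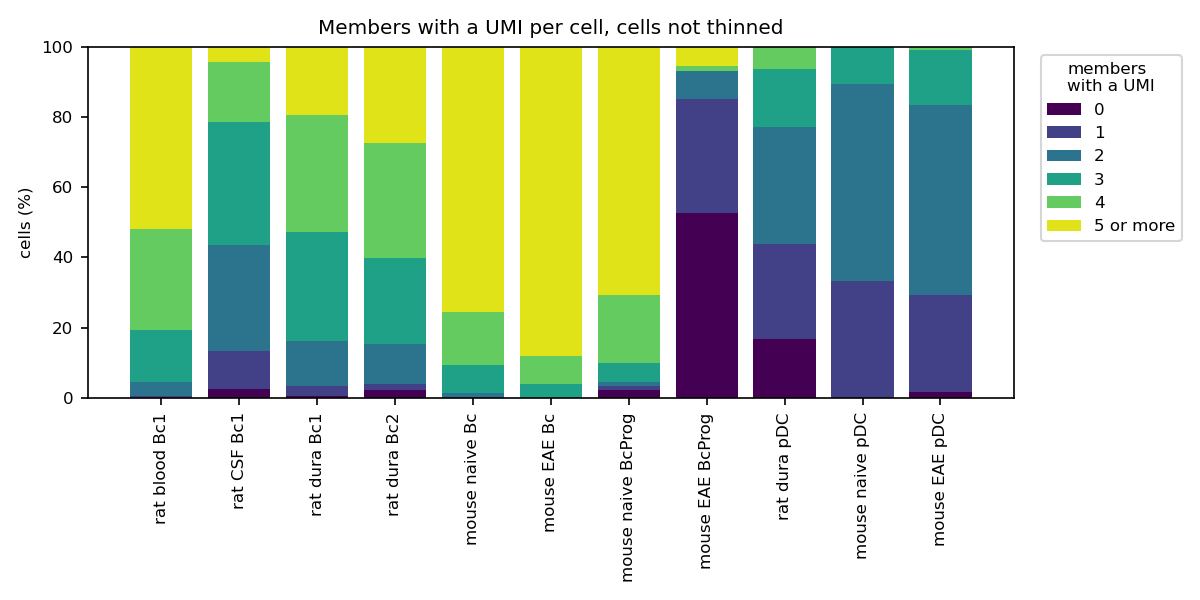
Stacked percent of cells by the number of the 9 genes with at least 1 UMI, for the B clusters whose levels are compared and for the pDC clusters of dura, at full depth without thinning. Most cells of EAE BcProg fall in the classes of 0 and 1, and CSF Bc1 has fewer genes per cell than blood and dura Bc1.

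Outside the B clusters Blnk and Spib reached high levels in particular clusters, and Cd79a and Cd79b stood out in a few. Of all member UMIs, the B clusters held 93.9% in blood, 88.8% in dura, 86.5% in naive mouse dura and 80.6% in CSF, but 33.8% in EAE mouse dura, 11.6% in pia, 9.40% in choroid plexus and 2.66% in CNS. For the other 7 members, the summed level outside B clusters was 247 CPM in blood, 80.3 CPM in dura, 25.2 CPM in CSF, 9.53 CPM in choroid plexus, 7.38 CPM in pia, 4.16 CPM in CNS, 23.5 CPM in naive and 29.0 CPM in EAE mouse dura. Blood, dura and CSF stood in the order of their B cell shares, while choroid plexus, pia and CNS stood in the reverse order of theirs. Leaving out cells with 2 or more members brought blood to 88.8 CPM and dura to 20.1 CPM. Those cells were picked by the members themselves, so a lower level follows from the choice.

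Outside B and pDC clusters, Blnk had its highest levels in the clusters micro and myeloid 2 of rat CNS. In CNS the cluster that the authors called micro gave 552 CPM (536 to 568), with a UMI in 70.2% of 2974 cells, and CNS myeloid 2 gave 536 CPM. The same micro cluster was at 265 CPM in CSF, 271 CPM in dura, 177 CPM in choroid plexus and 165 CPM in pia, and dura myeloid 2 was at 128 CPM. Apart from blood, the levels of Blnk in the micro clusters and in CNS myeloid 2 lay in the range of its level in Bc1, 157 to 761 CPM. The 20 micro cells of blood had 0 Blnk UMIs, which allows up to 172 CPM. In blood all clusters other than B cells and pDC together gave 9.51 CPM. Mouse myeloid1 gave 89.4 CPM in naive and 49.5 CPM in EAE dura, below the Blnk levels of 295 and 204 CPM in Bc.

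The pDC clusters carried Blnk and Spib in both species. Blnk was 634 CPM in rat dura pDC (48 cells), and 700 CPM in naive and 416 CPM in EAE mouse pDC. Spib was 259 CPM in rat dura pDC and 218 and 172 CPM in mouse pDC, and mouse myeloid3 had 29.9 CPM in naive and 37.5 CPM in EAE. In rat dura pDC Cd79a gave 313 CPM, with a UMI in 19 of 48 cells. In mouse pDC Cd79a was found in 0 of 48 naive cells and gave 3.91 CPM in EAE, from 5 of 126 cells. The chemistry differs between the species, so these levels were not compared. The other rat libraries had Cd79a in 9 of 16 choroid plexus pDC, 2 of 2 in CNS, 2 of 9 in pia, 1 of 7 in CSF and 1 of 9 in blood. Rat pDC of all libraries had 0 UMIs of Ebf1 and of Pax5. In rat dura pDC Cd79a UMIs outnumbered those of Cd79b 35 to 3.

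**Figure D4:**
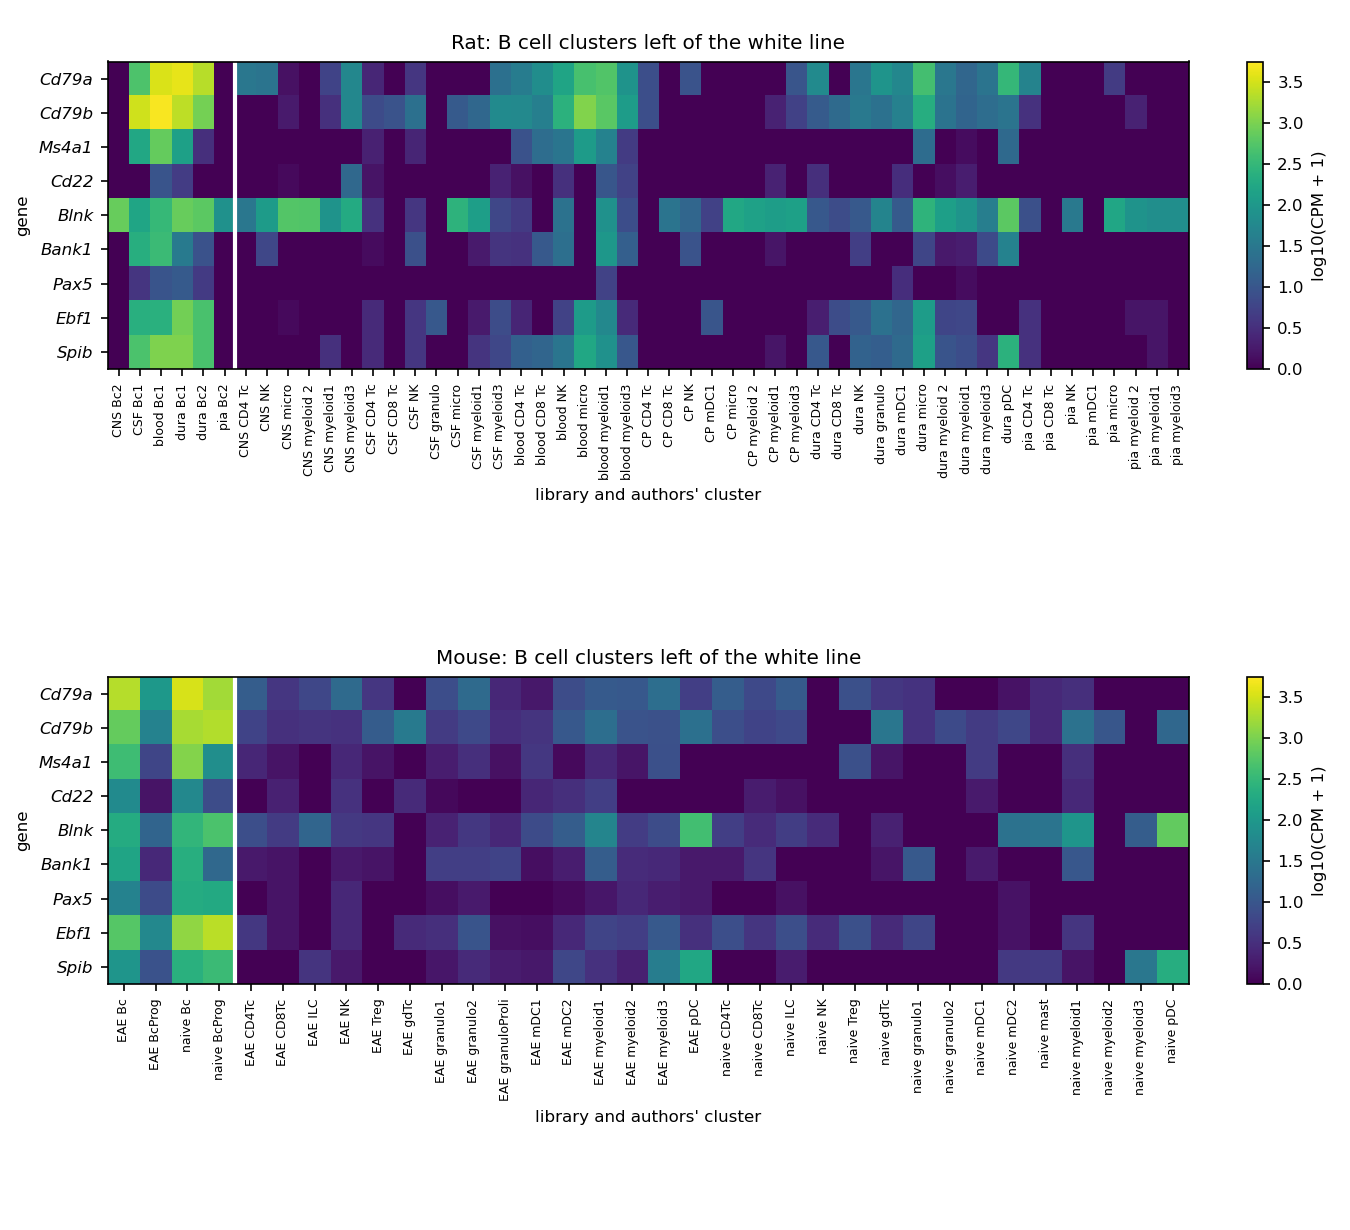
Level of each gene as log10(CPM + 1) in every cluster and library of at least 20 cells. B clusters have the highest levels of most genes, while Blnk is also high in micro, myeloid and pDC clusters and Spib in pDC.

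Cd79a without Cd79b was also found in a cluster named for CD4 T cells. In dura CD4 Tc, 56 UMIs of Cd79a stood against 10 of Cd79b, and in pia CD4 Tc 19 against 1. These cells were divided by whether they had a UMI of a Cd3 gene, which encode the T cell receptor's signalling chains, a division made after the data were seen. In dura 35 of 186 cells without a Cd3 UMI had Cd79a (18.8%, 13.5 to 25.2), against 8 of 405 with one (1.98%), at medians of 1445 and 1351 UMIs. In pia it was 11 of 144 (7.64%) against 2 of 351 (0.570%). In blood 0 of 3 cells without and 35 of 737 with a Cd3 UMI had Cd79a, too few without to compare. In CSF it was 1 of 67 (1.49%, 0.0378 to 8.04) and 4 of 1464 (0.273%). The dural cells without Cd3 UMIs were led, against those with them, by Zfp385d, Cysltr1, Olah, Nr4a1, G0s2, Bglap, Mgst1 and Il17rb, and the pial ones by Hpgds, G0s2 and Nr4a1. These leading genes were picked by their values. Cd79b was seen in 1 dural and 0 pial cells without a Cd3 UMI.

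In some clusters of mouse dura the reverse was seen, Cd79b with little Cd79a. The CD4Tc cluster was not among them, with 15 UMIs of Cd79a and 9 of Cd79b in naive dura and 15 and 6 in EAE. In gdTc, the cluster named for gamma delta T cells, Cd79b was 29.0 CPM in naive dura, from 42 of 379 cells, and 33.4 CPM in EAE, from 15 of 79 cells. Cd79a in the same clusters was 3.02 CPM in naive and 0 UMIs in EAE, which allows up to 5.27 CPM. Naive CD4Tc and CD8Tc had Cd79b at 7.07 and 4.73 CPM, and their intervals lay below that of naive gdTc (21.4 to 38.5), whose median depth was 4277 UMIs against 3445 and 4137.5. Naive myeloid1 had Cd79b at 25.3 CPM and Cd79a at 2.25 CPM.

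The share of Cd79a among the UMIs of both chains puts these patterns on 1 scale. It was 39.8% in Bc1 of blood, 14.3% in CSF, 62.9% in dura, 70.5% in dura Bc2, 64.4% in naive Bc, 45.3% in naive BcProg and 74.4% in EAE Bc. Outside B clusters and pDC it was 42.0% in blood, 19.1% in CSF and 60.2% in dura, each near the share in that library's own Bc1. In mouse dura the outside share was 30.1% in naive and 47.2% in EAE, below the shares of Bc. Among single clusters it reached 92.1% in rat dura pDC, 84.8% in dura CD4 Tc and 95% in pia CD4 Tc, and fell to 9.43% in naive gdTc and 8.16% in naive myeloid1. In EAE mouse dura the share was 14.3% in pDC (5 against 30 UMIs), 20.8% in the regulatory T cell cluster and 32.6% in myeloid1. The highest cluster levels of Cd79a outside B and pDC clusters came with high Cd79b. They were 534 and 612 CPM in blood myeloid1 (93 cells) and 458 and 1088 CPM in blood micro (20 cells, from 8 and 19 UMIs). In dura micro (106 cells) they were 424 and 214 CPM, and in blood NK cells 156 and 254 CPM. Most cells of blood NK and dura micro had no UMI of any member, 124 of 155 and 65 of 106. Cells with 2 or more members numbered 10 in blood NK and 17 in dura micro, where they held 88.4% of member UMIs. In blood micro 6 of 20 cells had 2 or more members and 10 had none. Blood myeloid1 differed, with 2 or more members in 50 of 93 cells and none in 27.

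**Figure D5:**
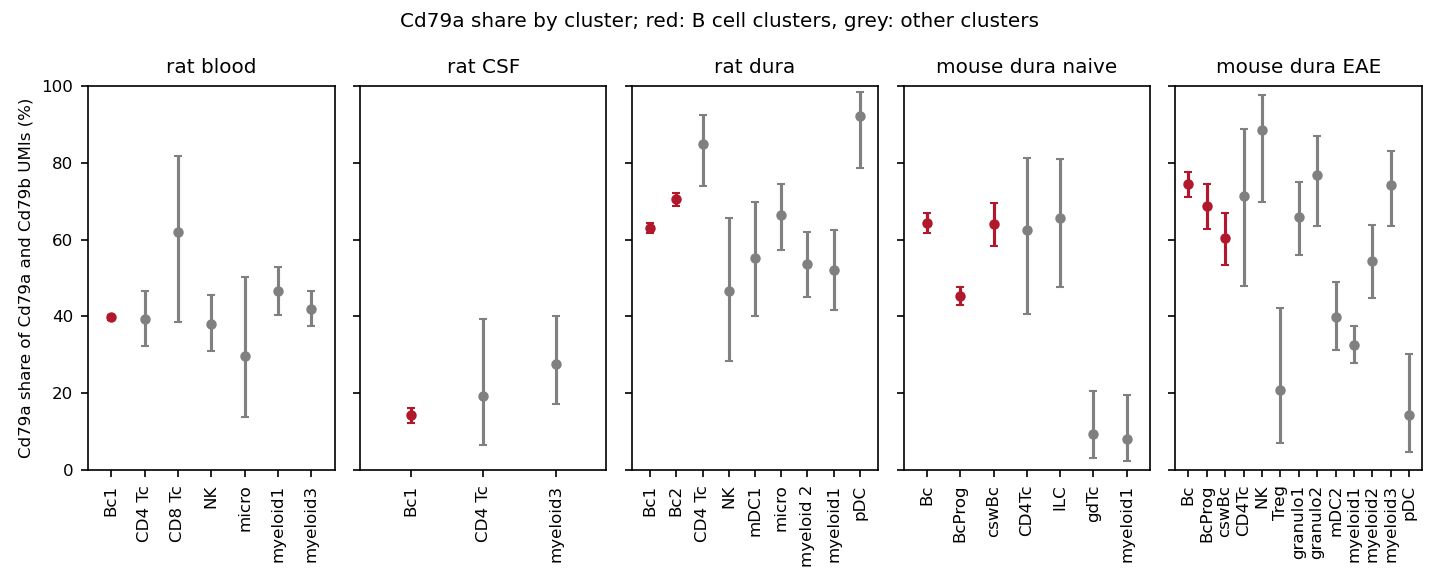
Cd79a UMIs as a percent of Cd79a plus Cd79b UMIs, for clusters with at least 20 such UMIs, with exact binomial 95% bars. Bc1 lies at 14.3% in CSF, 39.8% in blood and 62.9% in dura, and the pDC and CD4 Tc clusters of dura lie above their library's Bc1.

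B cell receptor sequences could be set beside the members in EAE only. The EAE receptor table listed 1185 barcodes, of which 877 were in the EAE expression library and 795 had a cluster, while the 159 barcodes of the naive table shared 0 with the naive library. The descriptions of the receptor samples name the condition opposite to their titles, and the condition tag of every mouse sample reads as EAE, so groups follow the titles. Both a heavy and a light chain were found for 12 of 25 Bc cells, 7 of 74 BcProg cells and 3 of 11 cswBc cells, and for 166 of 4469 cells outside the B clusters. Of the 7 BcProg cells with both chains, 4 had 3 or more members, against 1 of 67 without. Outside B clusters 3 or more members were found in 4 of 166 cells with both chains (2.41%, 0.660 to 6.05) and in 80 of 4303 without (1.86%), and the summed level of the 7 members other than Blnk and Spib was 47.8 CPM (39.1 to 57.8) against 28.3 CPM (26.9 to 29.7).

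Other genes of receptor signalling and B cell maturation were taken from a list of 66 rat and 69 mouse genes. In Bc1 of dura against blood, 6 of 59 compared genes were at least 2-fold higher and 23 lower, where 13.3% of all genes were higher and 14.6% lower. The median log2 ratio was −0.59 beside 0.03 for all genes. Of receptor and signalling genes 12 of 29 were lower and 1 higher, of mature surface genes 7 of 11 lower and 2 higher, and of transcription factors 4 of 19 lower and 3 higher. The lowest were Ccr6, a homing receptor (9.70-fold lower), Fcer2, the low-affinity IgE receptor CD23 (7.57-fold), Cr2, the complement receptor CD21 (6.12-fold), and Cd180 (5.92-fold). The highest were Myb, a factor of immature cells (39.7-fold, 233 against 14 UMIs), the activation marker Cd69 (8.22-fold), Irf4 (6.18-fold) and Cd83 (4.34-fold). With all B clusters summed, which added 371 Bc2 cells in dura and 5 in blood, 7 of 59 were higher and 27 lower. Of all genes 17.7% were higher and 14.1% lower in that sum.

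In CSF against blood, 3 of 57 listed genes were higher and 13 lower, near the 6.49% and 20.2% of all genes, and the median log2 ratio of −0.38 was close to the −0.40 of all genes. Under TMM scaling 4 were higher and 8 lower. The lowest were the signalling genes Vav1 (9.71-fold lower, from 2 UMIs in CSF), Blk (4.26-fold), Ptpn22 (3.97-fold) and Plcg2 (2.84-fold, with an interval that included 1). Among the highest were Zfp318 (2.59-fold), Rasgrp3 (2.07-fold) and Foxo1 (1.78-fold, interval including 1). In dura Bc2 against Bc1, 2 of 52 were higher, Lef1 (5.91-fold) and Id3 (2.62-fold), and 22 were lower, against 13.3% and 10.3% of all genes.

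In mouse Bc, 2 of 54 listed genes were at least 2-fold higher in EAE and 14 lower, against 8.07% and 18.3% of all genes. Under TMM scaling these counts were 5 and 10. The lowest were Tnfrsf13c, the receptor for the survival factor BAFF (4.20-fold lower), Klf2 (4.16-fold), Ikzf1 (3.67-fold) and Irf4 (3.54-fold). The highest were Sox4 (2.59-fold), Plcg2 (2.22-fold), Inpp5d and Ccr6 (both 1.97-fold), where the intervals of Plcg2 and Ccr6 included 1. In naive BcProg against Bc, 8 of 57 were higher, led by Myb (11.9-fold), Sox4 (9.29-fold), Lef1 (6.37-fold) and Bach2 (4.08-fold), and 12 were lower, among them Cd83 (8.68-fold), H2-Ob (6.54-fold) and Fcrl1 (5.75-fold). Of all genes 18.3% were higher and 6.35% lower there. Fcer2a had 0 UMIs in naive BcProg and 38 in Bc. In EAE against naive BcProg, 34 of 56 were lower and 4 higher (30 and 7 under TMM scaling), the higher ones including Spi1 (2.28-fold), Vav1 (2.14-fold) and Plcg2 (2.11-fold), with Cd69, Tnfrsf13c, Fcrla and Ikzf3 lowest. Of all genes 20.4% were lower and 16.2% higher.

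Genes most like the members were ranked by Pearson correlation of log2(CPM + 1) with the members' mean over cluster and library groups of at least 50 cells. The groups share libraries, depth and their own B cell RNA, and the values are a description. Over 42 rat groups and 8469 genes, with 7 members detected, the closest genes included Pou2af1, the B cell partner of Oct factors (0.96), Pde6h (0.95), Mzb1 (0.94) and Fam129c (0.93). Over 29 mouse groups and 9574 genes they were the light chain gene Iglc2 (0.90), Fcmr (0.88), Vpreb3 (0.88), Mzb1, Fam129c, Ly6d and Pou2af1. Single members could have other closest genes, as Ms4a1 had Scd1 (0.91) in the mouse. When Blnk was ranked by itself, the closest were Mef2c (0.88), Erp29 (0.81) and Cd81 (0.80) in the rat, and Pkig (0.84), Blvrb and Tcf4 in the mouse. The correlation of Blnk with the other detected members ran from 0.14 to 0.27 in the rat and reached 0.82, with Spib, in the mouse.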

How the data were processed

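Gene counts were deposited by the authors as 1 UMI count matrix per species, with tables that give each barcode its tissue or condition and its cluster. The submitters' processing notes name the builds mm10 and Rnor_6.0 and the tool Cell Ranger 3.1.0, and per the file headers the rat matrix was written by version 3.0.2. Rat libraries used 10x 3′ chemistry v2 and mouse libraries v3, per the labels' protocols, so levels were not compared between species. The labels state a mean of 4384 cells per rat tissue and 3900 per mouse sample. The matrices hold a mean of 4383.5 and 4063 barcodes per library, and 3531 and 3677.5 of these have a cluster and were used.

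Counts were summed per cluster and library and scaled to CPM. Groups under 20 cells received counts only. Folds were computed for all genes with at least 20 UMIs over both sides, and a fold of 2 was used for counts of genes. A side with 0 UMIs was set to 3 counts. Shares of cells were given after thinning to 500 (rat) or 1000 (mouse) UMIs, leaving out shallower cells. Doublets were marked per library by Scrublet in scanpy 1.11.5 and kept. Under 0.5% were marked in 4 of the 8 libraries. The ratio code was tested on simulated data. The named genes are the 9 members, the 4 highest and 4 lowest listed genes per comparison, and the 10 genes most like the members' mean and 3 most like each member, of which some are not reported here. The members and lists were chosen with earlier results of these data known. Alternatives were TMM scaling, a total without ribosomal, mitochondrial and immunoglobulin genes, equal weight per cell, deeper cells only, no doublets, and a minimum of 5 UMIs. Tools were Python 3.11.15, numpy 2.4.6, pandas 2.3.3, scipy 1.17.1, matplotlib 3.10.9, R 4.3.3 and edgeR 4.0.16, the last for TMM factors only.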

Additional observations from a re-analysis of the deposited data

Results flagged for a closer look

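Barcodes without a cluster were placed in a library by the barcode suffix that its annotated cells share. They were left out of every level and ratio in the report, and some held several of these B cell genes. UMIs of 3 or more members were found in 80 of 241 such barcodes of rat dura, 26 of 115 of rat blood and 15 of 4348 of rat CSF. In mouse dura they were found in 9 of 350 naive and 46 of 421 EAE barcodes. In pia, CNS and choroid plexus the counts were 1 of 279, 1 of 48 and 0 of 83. These barcodes are data outside the main measurement, and what they hold was not tested.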

How the results depend on the processing

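With 1 library per group the settings test the arithmetic and not the biology, no replicate could be left out, and depth limits Cd22 and Pax5 in the rat. No paired analysis was possible because no groups share 2 replicates. Among the 56 member ratios, leaving out marked doublets or lowering the minimum to 5 UMIs moved none beyond its interval. TMM scaling moved 14, with shifts of the log2 ratios between −0.17 and 0.33. Equal weight per cell moved 9, and the total without ribosomal, mitochondrial and immunoglobulin genes moved 3. Keeping only deeper cells moved the most, 20 of the ratios for which it was run, and left 15 within their intervals. Only 2 called ratios turned sign: Cd79a in all B clusters of dura over blood (−0.14, and 0.061 with each cell weighted equally) and Cd79b in naive BcProg over Bc (0.16, and −0.0068 with TMM). Members at least 2-fold higher numbered 1 in place of 2 for all B clusters of dura over blood with TMM, and 1 in place of 0 for naive BcProg over Bc with equal weights. Members at least 2-fold lower numbered 2 in place of 4 for CSF over blood with TMM and with the reduced total, and 2 in place of 4 for dura Bc2 over Bc1 among deeper cells. Pathway genes lower in CSF numbered 8 in place of 13 with TMM, and those higher 5 in place of 3 at the minimum of 5 UMIs. Pathway genes higher in EAE numbered 5 (TMM) and 6 (minimum of 5 UMIs) in place of 2 for Bc, and 7 in place of 4 for BcProg with TMM. The cause of these shifts was not tested.

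Outside B clusters, the summed CPM of 7 members without marked doublets was 58.1 in dura and 171 in blood. Without cells holding 2 or more members it was 20.1 in dura, 88.8 in blood, 13.2 in CSF, 5.24 in choroid plexus, 2.24 in CNS, 12.2 in naive and 10.8 in EAE mouse dura, and without pDC it was 5.25 in choroid plexus. Cells holding 2 or more members were picked by the genes that were summed, so a lower level without them follows from the choice. The difference in members per cell between dura and blood Bc1 was −0.17, −0.37 at the higher thinned depth and −0.99 without thinning. For mouse Bc, EAE minus naive was −1.22, and 0.81 without thinning. For naive BcProg minus Bc it was −0.12, −0.47 and −0.52. The alternative of deeper cells was not run for mouse Bc or for naive BcProg over Bc, where 11 naive Bc cells were deep enough.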
